A study of Mus musculus with 24 samples.

Results

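Chemokines, interleukins and their receptors outside the interleukin-1 family were examined in open-chromatin maps of mouse skin stem cells before and after wounding. A region belonged to this set when its nearest protein-coding gene, at most 50 kb away, had a symbol starting with Ccl, Cxcl, Ccr, Cxcr, Ackr or Il and a digit, leaving out the interleukin-1 ligands and receptors, Il33, Il18, Il6ra and Il6st. The rule took 314 of 63188 regions, those of 98 of the 126 genes it covers, and used no measured difference between groups. It also kept Il1rl2, Il18r1, Il18rap and Il1rapl2, receptor genes of the wider interleukin-1 receptor family, and Il4i1 and Il4i1b, which are named for induction by interleukin 4. Of the regions, 13 were equally near to a further gene and are counted for both.

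ATAC-seq, which reads where a transposase can cut the chromatin, was run on 24 samples of sorted skin cells from a cross of CD1 and C57BL/6J mice. After a partial-thickness wound, hair follicle stem cell progeny were isolated from Krt19-CreER/R26-YFP mice with 3 samples from day 3, 2 from day 7 and 3 from day 80. After a full-thickness wound, progeny of epidermal stem cells were taken from Sox9-CreER/R26-YFP mice, with 3 samples from day 7 and 2 from day 80. Unwounded Krt19-CreER/R26-YFP mice gave 4 samples of hair follicle stem cells from day 0, and epidermal stem cells with 3 samples from day 80 and 4 from day 0. The driver of a CreER transgene decides which cells can be labelled, Krt19 and Sox9 both being genes of the hair follicle, and the labels do not say how the progeny of the epidermis were told apart in the Sox9-CreER mice. Wound type, driver and cell of origin cannot be told apart between the partial- and full-thickness lists. Neither ages nor sexes of the mice are stated in the labels.

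The authors deposited 1 peak list for each group, and every comparison is one of presence and absence, with no error between replicates and no test. The depth of sequencing is unknown. The lists held 29365 to 37214 peaks, and the weakest peak kept had a −log10 p between 7.86 (day 80 epidermis) and 40.2 (day 7, partial-thickness wound), so a weak region can enter one list and miss another without a change in the cells. The strength of a region in a list is given below as its score percentile, the rank of its best peak by the authors' score among all peaks of that list, where 100 is the strongest. Percentiles describe a region within its own list and were not compared as levels. Regions given with coordinates below are those the naming rule takes, with further examples chosen after their values had been seen. With cells measured in bulk, fewer cells with an open region and less access per cell cannot be told apart. Exact Clopper-Pearson 95% intervals treat regions as independent and cover counting error only. Of 20 leukocyte markers 8 had a region, and the lists held 10, 9 and 9 of their 21 regions after the partial-thickness wound at days 3, 7 and 80, 10 and 9 after the full-thickness wound at days 7 and 80, 2 in the hair follicle, and 8 and 6 in the day 80 and day 0 epidermis. No list held a region of Cd3d, Cd3g, Cd4, Cd8a, Cd79a, Itgax, Cd207, Lyz2, Csf1r, Fcgr3, Ly6g or Nkg7. Those with regions included Ptprc, Cd3e, Itgam, Adgre1, S100a8, Cd52 and Laptm5. Both regions of S100a8, a neutrophil gene that injured keratinocytes also express, were in each early wound list, and neither was in a healed or day 0 list. The unwounded day 80 epidermal list held 1 of them. Cd3e, a T cell gene, had 0, 1 and 1 regions, then 1 and 1, then 0, 1 and 0, and the myeloid genes Itgam and Adgre1 had 2 regions each, none of them in the hair follicle. Ptprc, the pan-leukocyte gene, had 3, 2 and 1, then 1 and 0, then 0, 2 and 1 in the same order, which values written as 3, then 2, then 3 keep below. Of the leukocyte regions 10 of 21 (47.6%) were in an early partial-thickness list and neither day 0 list, against 19.8% of all regions, and 7 (33.3%) in the day 7 full-thickness list and neither, against 18.9%. Endothelial markers, with regions at 4 of 5 genes, had 15, 20 and 12, then 12 and 11, then 9, 8 and 6 of 26, and 12 of them (46.2%) were in an early partial-thickness list and neither day 0 list. Fibroblast markers, at 4 of 7 genes, had 3, 2 and 6, then 4 and 5, then 8, 8 and 5 of 15, and melanocyte markers, at 4 of 5 genes, 10, 9 and 9, then 12 and 11, then 14, 10 and 8 of 22. The part of these cell types in the results below was not tested. Of the 8 keratinocyte markers all had a region, with 43, 35 and 39, then 38 and 31, then 33, 33 and 18 regions. Krt5, a basal keratin gene, had none in the day 0 epidermal list, which also carries a day 7 tag in its peak names. Both epidermal lists are named as controls and were read as unwounded epidermis. Whether the list with that tag is of day 0 is not settled, and this holds for every class that uses it.

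Chemokines are small secreted proteins that draw leukocytes through G protein-coupled receptors, and atypical receptors bind them without that signal and clear them from tissue. Interleukins act through paired receptor chains that mostly signal by JAK kinases and STAT factors, whereas receptors of the interleukin-17 family signal through Act1 to NF-kB. In skin, keratinocytes are both a source and a target. They make neutrophil chemokines when injured, make cytokines such as Il34 that sustain Langerhans cells, and answer interleukin 17, interleukin 22 and the interleukins 19, 20 and 24 with proliferation and antimicrobial defence.

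The start sites of a few members lay in regions with different patterns over the lists, and the 250 bases before the start are printed for 5 of them, to show what the accessible promoters hold. They were chosen after values had been seen. Cxcl3 had its promoter region in the early wound lists alone, Cxcl1 in 7 lists, Cxcl10 in all 8, Il6 in every list but the day 0 epidermal one, and Il20ra in 5 lists that did not include an early wound. Capitals mark matches on either strand to the AP-1 motif TGANTCA, the STAT motif TTCNNNGAA and the NF-kB motif. The sequences are those of RefSeq on GRCm38.p6, the assembly of mm10, read from 5′ to 3′ on the strand of the gene.
Cxcl3 (chr5:90785851-90786100, plus strand): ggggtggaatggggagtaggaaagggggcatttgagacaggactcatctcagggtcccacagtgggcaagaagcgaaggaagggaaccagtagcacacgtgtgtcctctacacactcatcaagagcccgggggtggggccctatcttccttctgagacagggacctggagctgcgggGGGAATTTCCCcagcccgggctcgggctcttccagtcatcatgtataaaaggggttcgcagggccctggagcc
Cxcl1 (chr5:90890995-90891244, plus strand): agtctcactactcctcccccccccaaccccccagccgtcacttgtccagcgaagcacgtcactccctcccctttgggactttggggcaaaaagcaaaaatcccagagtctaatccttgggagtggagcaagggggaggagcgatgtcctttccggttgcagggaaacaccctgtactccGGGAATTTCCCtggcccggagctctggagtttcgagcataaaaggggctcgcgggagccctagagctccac
Cxcl10 (chr5:92348890-92349139, minus strand): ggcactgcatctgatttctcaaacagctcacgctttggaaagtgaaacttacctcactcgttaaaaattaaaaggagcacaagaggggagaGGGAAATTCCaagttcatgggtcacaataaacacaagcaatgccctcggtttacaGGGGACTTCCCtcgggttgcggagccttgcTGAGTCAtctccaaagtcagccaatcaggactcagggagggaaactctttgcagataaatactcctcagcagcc
Il6 (chr5:30012864-30013113, plus strand): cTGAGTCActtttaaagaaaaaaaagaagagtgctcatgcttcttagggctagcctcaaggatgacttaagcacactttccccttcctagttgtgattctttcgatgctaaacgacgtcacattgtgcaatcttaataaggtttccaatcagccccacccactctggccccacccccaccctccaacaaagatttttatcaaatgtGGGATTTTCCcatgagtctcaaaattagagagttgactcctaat
Il20ra (chr10:19712337-19712586, plus strand): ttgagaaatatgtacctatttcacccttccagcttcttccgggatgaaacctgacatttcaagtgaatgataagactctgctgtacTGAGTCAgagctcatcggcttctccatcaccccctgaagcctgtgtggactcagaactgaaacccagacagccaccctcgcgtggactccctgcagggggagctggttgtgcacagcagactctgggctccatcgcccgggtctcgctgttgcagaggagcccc
Cxcl3 and Cxcl1 each held GGGAATTTCC and, shifted by 1 base, GGAATTTCCC, overlapping matches to the same NF-kB motif on opposite strands. Their first bases were 73 and 72 before the Cxcl3 start and 71 and 70 before the Cxcl1 start. Cxcl10 held GGGAAATTCC 159 bases before its start, GGGGACTTCC overlapping GGGACTTCCC from 104 bases, and the AP-1 match TGAGTCA from 74 bases. Il6 held TGAGTCA 249 bases and GGGATTTTCC 44 bases before its start. In Il20ra the only match was TGAGTCA, 164 bases before the start. No match overlapped one of another motif in these 5 sequences. Over windows of 300 bases from 250 before to 50 after a start, the NF-kB motif was held by 8 of 34 member windows that overlapped a region (23.5%), by 20 of all 113 member windows (17.7%) and by 9.25% of 21263 protein-coding windows. AP-1 matches were held by 6 of the 34 (17.6%), 21 of the 113 (18.6%) and 6.99%, and STAT matches by 4 (11.8%), 11 (9.73%) and 7.69%. Windows of 1 gene overlap each other, and a match is a description and not a site. Of the 126 member genes 95 were found in the promoter table. Cxcl1, Cxcl2 and Cxcl3 are closely related genes, and reads that match more than 1 of them could have been placed uncertainly.

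The number of member regions differed between the lists. After the partial-thickness wound the lists held 160 (day 3), 167 (day 7) and 166 (day 80), after the full-thickness wound 179 (day 7) and 165 (day 80), the hair follicle list 125, and the day 80 and day 0 epidermal lists 166 and 140. As shares of the 314 these were 51.0%, 53.2% and 52.9%, then 57.0% and 52.5%, then 39.8%, 52.9% and 44.6%. All regions gave 56.6%, 55.0% and 51.9%, then 58.0% and 51.1%, then 45.9%, 49.8% and 47.8%. Of regions assigned to a gene the shares were 59.0%, 56.8% and 54.5%, then 61.2% and 53.1%, then 46.8%, 51.5% and 49.2%. The 95% interval of the members lay below both shares in the hair follicle list (34.4 to 45.5), and in the day 3 list (45.3 to 56.6) below that of assigned regions. Within the lists the members leaned to weaker peaks, with median score percentiles from 41.6 (day 7, partial-thickness wound) to 47.3 (day 0 epidermis), against 50.2 to 51.5 over all regions.

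By position the members differed from other regions in these counts. They lay inside a gene in 142 of 314 cases (45.2%), against 69.2% of all regions with a gene, and 104 (33.1%, against 18.1%) lay more than 10 kb from their gene. All 8 lists held 41 of them (13.1%, interval 9.54 to 17.3), against 22.0% of all regions and 24.4% of those assigned to a gene. A single list held 78 (24.8%), against 26.6%, and for 20 of these it was the day 7 full-thickness list (6.37%, against 5.36%). These are descriptions, since a set of regions chosen by gene name has no replicate.

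**Figure D1:**
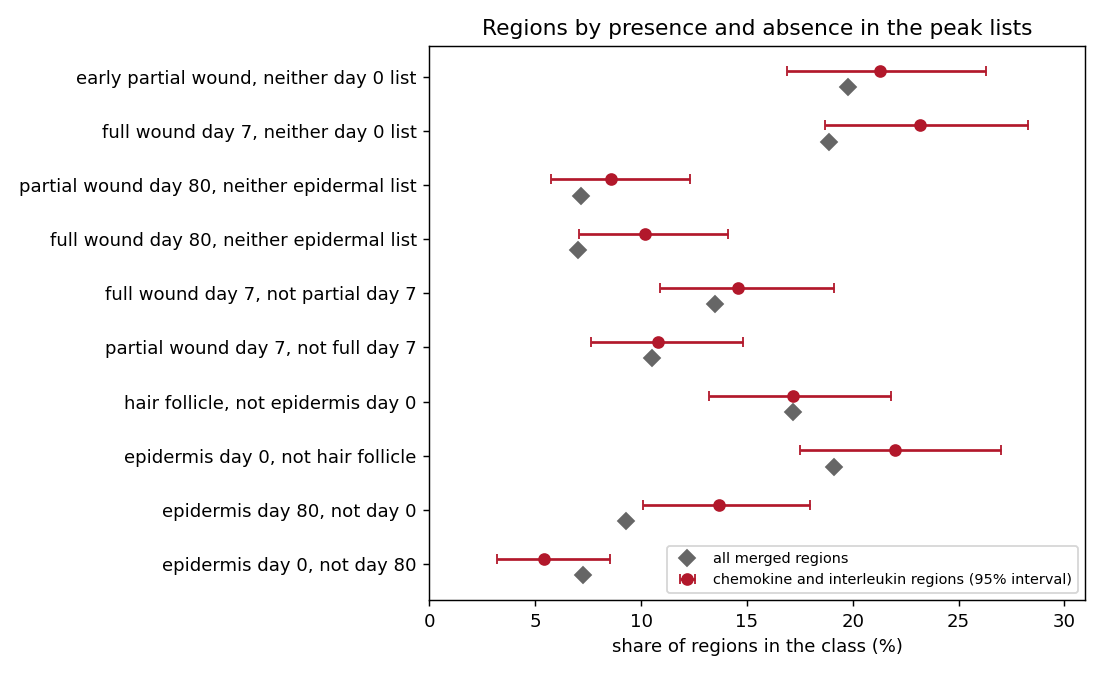
Share of regions (x axis, in percent) in each class of presence and absence (y axis) for the 314 chemokine and interleukin regions, as circles with exact 95% intervals, and for all 63188 regions, as diamonds. The diamonds lie within the interval of the circles in 8 of the 10 classes, and at 9.27% and 7.03% they lie just under it for regions of the day 80 epidermis missing at day 0 and of the healed full-thickness wound. Of regions assigned to a gene, which are not drawn, these shares were 9.34% and 7.12%, the latter inside the interval.

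The 10 classes of presence and absence gave the following counts. Regions in an early partial-thickness list and in neither day 0 list numbered 67 (21.3%, interval 16.9 to 26.3) at 49 genes, against 19.8% of all regions. The day 7 full-thickness list held 73 such regions (23.2%, 18.7 to 28.3) at 51 genes, against 18.9%. Regions of the hair follicle absent from the day 0 epidermis numbered 54 (17.2%, against 17.2%), and those of the day 0 epidermis absent from the hair follicle 69 (22.0%, against 19.1%). Of the healed wounds, the partial-thickness list had 27 regions in neither epidermal list (8.6%, against 7.14%) and the full-thickness list 32 (10.2%, 7.08 to 14.1, against 7.03%). Among regions assigned to a gene the full-thickness share was 7.12%, inside that interval. The day 80 epidermal list held 43 regions that the day 0 list lacked (13.7%, 10.1 to 18.0, against 9.27%), and the day 0 list 17 that the day 80 list lacked (5.41%, against 7.27%). With peaks of the upper 50% by score these last shares became 9.88% and 12.2%, on the other side of all regions (10.1% and 8.4%). The full-thickness list at day 7 held 46 regions that the partial-thickness list of that day lacked (14.6%, against 13.5%), with 34 the other way round (10.8%, against 10.5%). The members' shares lay near those of all regions in most classes, so the biology below is that of single genes.

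**Figure D2:**
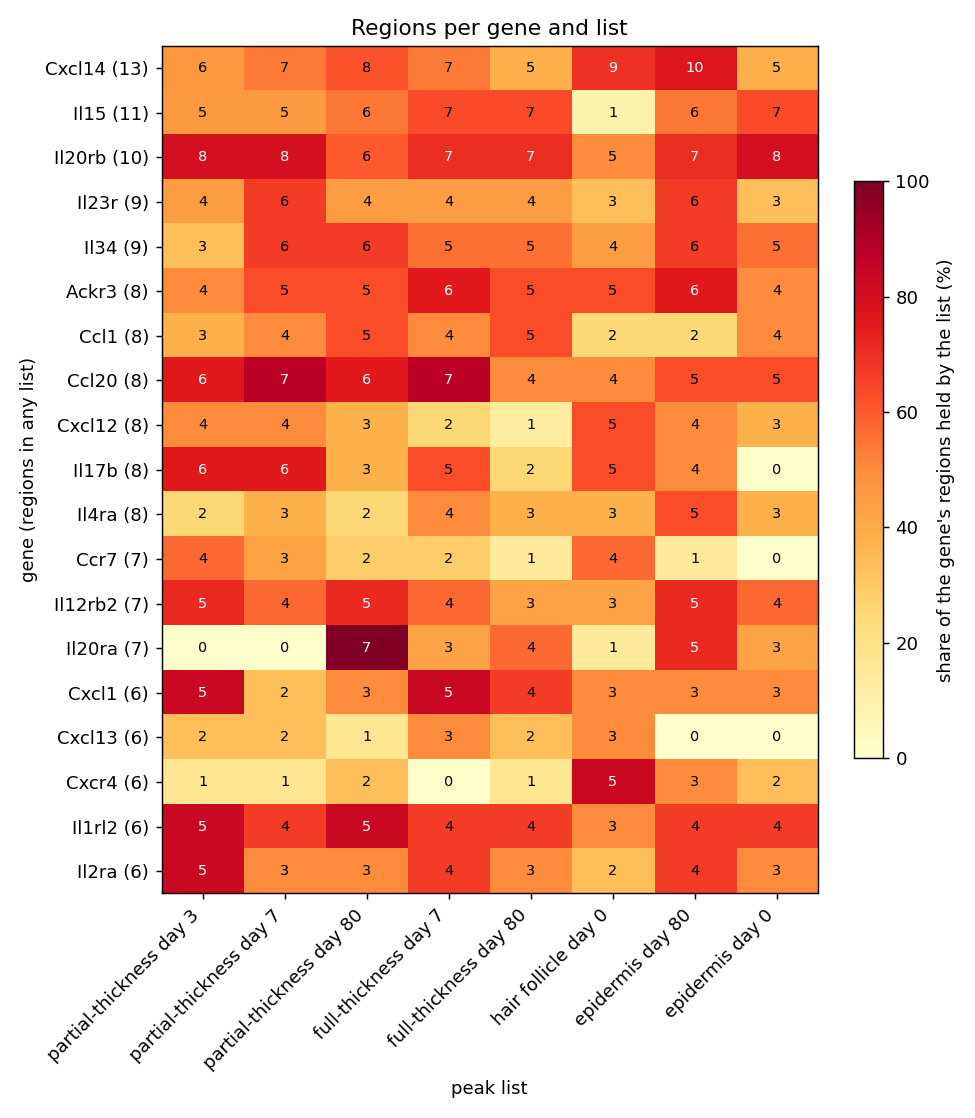
Number of regions (printed in each cell) of the 19 genes with at least 6 regions (y axis, total in brackets) in each of the 8 peak lists (x axis); colour gives the share of the gene's regions that the list holds. Il20ra has 0 regions in the early partial-thickness lists and 7 in the day 80 list, Cxcr4 has 5 in the hair follicle list and at most 3 elsewhere, and Il15 has 1 in the hair follicle list and 5 to 7 elsewhere.

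Among member regions absent from the unwounded lists, one of the interleukin-20 group of ligands ranked highest in 4 of the 5 wound lists. In the healed partial-thickness list others ranked above it, such as that of Ccl24 at percentile 48.2. Il19, Il20 and Il24 lie side by side on chromosome 1 with Il10 beyond them. Il20 and its neighbours Il19 and Il24 encode cytokines that keratinocytes both make and sense. A region 3949 bp from Il20 (chromosome 1, 130902207 to 130903036) was held by all 5 wound lists but by no unwounded one. Its score percentile after the partial-thickness wound was 97.5 (day 3), 97.2 (day 7) and 28.8 (day 80), and after the full-thickness wound 99.0 (day 7) and 84.5 (day 80), with fold enrichments over local background, as the authors' caller gives them, of 13.2, 14.6, 9.7, 14.0 and 14.4. It thus ranked among the top 3% of peaks in each early wound list. Regions of this pattern are few, 6 of the 314 (1.91%, interval 0.704 to 4.11) and 0.718% of all regions.

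Regions of Il24 near it were already open in unwounded cells. The region inside Il24 (130885705 to 130887098) was in all 8 lists, at percentiles 70.0, 85.9 and 59.7 in the partial-thickness lists (days 3, 7 and 80), 78.4 and 93.2 for the full-thickness wound (days 7 and 80), and 30.2, 47.8 and 46.0 in the hair follicle, day 80 and day 0 epidermal lists. The region 4798 bp from Il24 (130892209 to 130893210) had 91.0, 94.8 and 40.0, then 96.7 and 80.1, then 58.9 in the hair follicle and 37.2 in the day 0 epidermis, and the day 80 epidermal list lacked it. Ranks within lists of different length show no change, so these values place each region in its own list only. Il19 had 3 regions, all overlapping the gene and in no unwounded list. The region at 130943656 to 130944574 was in the 3 early wound lists alone, at percentiles 56.9 at day 3, 30.3 at day 7 and 59.2 in the full-thickness list, and 2 more were in the day 7 full-thickness list alone.

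**Figure D3:**
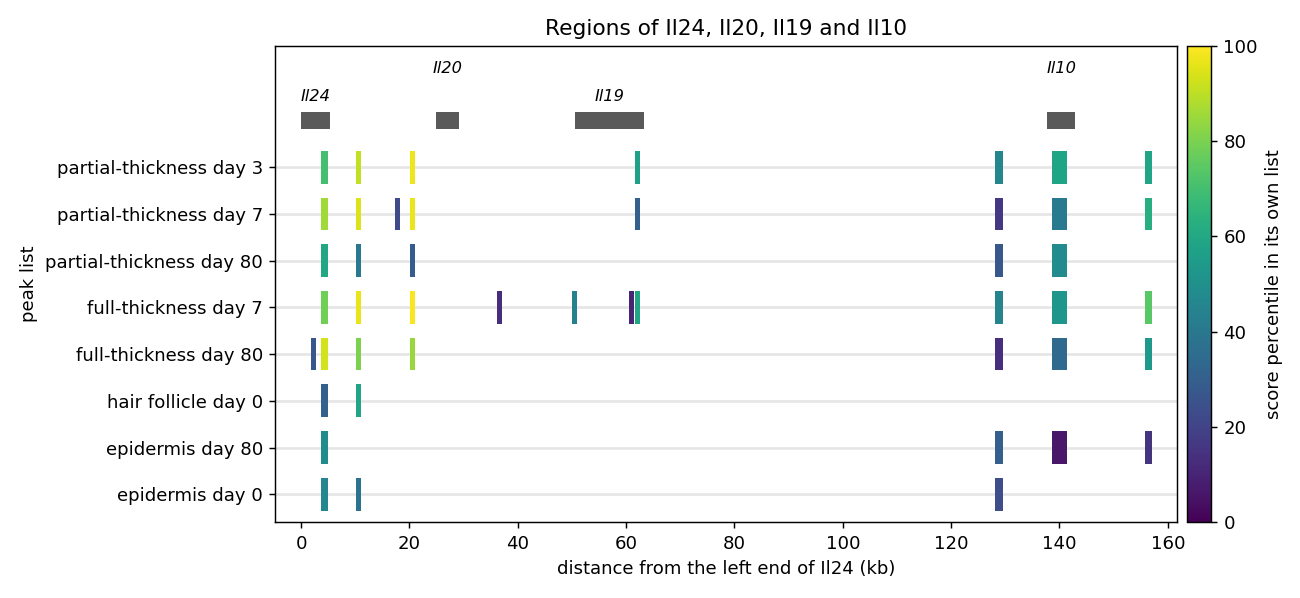
Member regions of Il24, Il20, Il19 and Il10 along the chromosome (x axis, distance in kb from the left end of Il24; grey bars are the genes) in each peak list (rows), coloured by score percentile within the list. Narrow regions are drawn at a minimum width. The Il20 region is coloured in all 5 wound rows, at percentiles 28.8 to 99.0, and in no unwounded row.

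Il10, an anti-inflammatory cytokine gene, had 3 regions in each early wound list, 2 in the healed partial-thickness and 3 in the healed full-thickness list, none in the hair follicle, 3 in the day 80 epidermis and 1 in the day 0 epidermis. The region over the gene (131020657 to 131023416) had percentiles of 58.5, 40.8 and 48.0 in the partial-thickness lists and 52.7 and 33.9 for the full-thickness wound, and 5.9 in the day 80 epidermis. Il22, the last ligand of the group, had no region.

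Of the 31 regions of the receptor genes of this group, the partial-thickness lists held 14, 16 and 24 and the full-thickness lists 19 and 20, with 9 in the hair follicle and 22 and 21 in the day 80 and day 0 epidermis. Of all regions the same lists held 56.6%, 55.0% and 51.9%, then 58.0% and 51.1%, then 45.9%, 49.8% and 47.8%. Il20ra encodes the chain that pairs with the product of Il20rb to bind the interleukins 19, 20 and 24. It had 7 regions, of which the partial-thickness lists held 0 on day 3, 0 on day 7 and all 7 on day 80, those of the full-thickness wound 3 on day 7 and 4 on day 80, the hair follicle list 1, and the day 80 and day 0 epidermal lists 5 and 3. Its promoter region (chromosome 10, 19711018 to 19713027), whose sequence is printed above, was in none of the 3 early wound lists. In the lists that held it its percentile was 47.6 and 39.1 in the healed partial- and full-thickness wounds, 13.0 in the hair follicle, and 38.7 and 22.5 in the day 80 and day 0 epidermis. A pair of Il20ra regions, at 19747181 to 19749375 inside the gene and at 19765522 to 19766073 beyond it, was in the healed partial-thickness list and no other. Their percentiles in that list were 39.4 and 11.2.

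Il22ra2, which lies beside Il20ra and encodes a secreted protein that binds and blocks interleukin 22, had 5 regions. The partial-thickness lists held 1 on day 3, 2 on day 7 and 5 on day 80, the full-thickness lists 4 and 3 at days 7 and 80, the hair follicle list 1 and both epidermal lists 5. The region 21836 bp from it (19656517 to 19658613) was absent from the hair follicle and from the early partial-thickness wound, and had percentiles of 97.0 in the healed partial-thickness list, 56.0 and 77.8 for the full-thickness wound (days 7 and 80), and 92.3 and 88.3 in the day 80 and day 0 epidermis. The hair follicle, from which the labels say the partial-thickness cells derive, held 1 region of each gene.

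**Figure D4:**
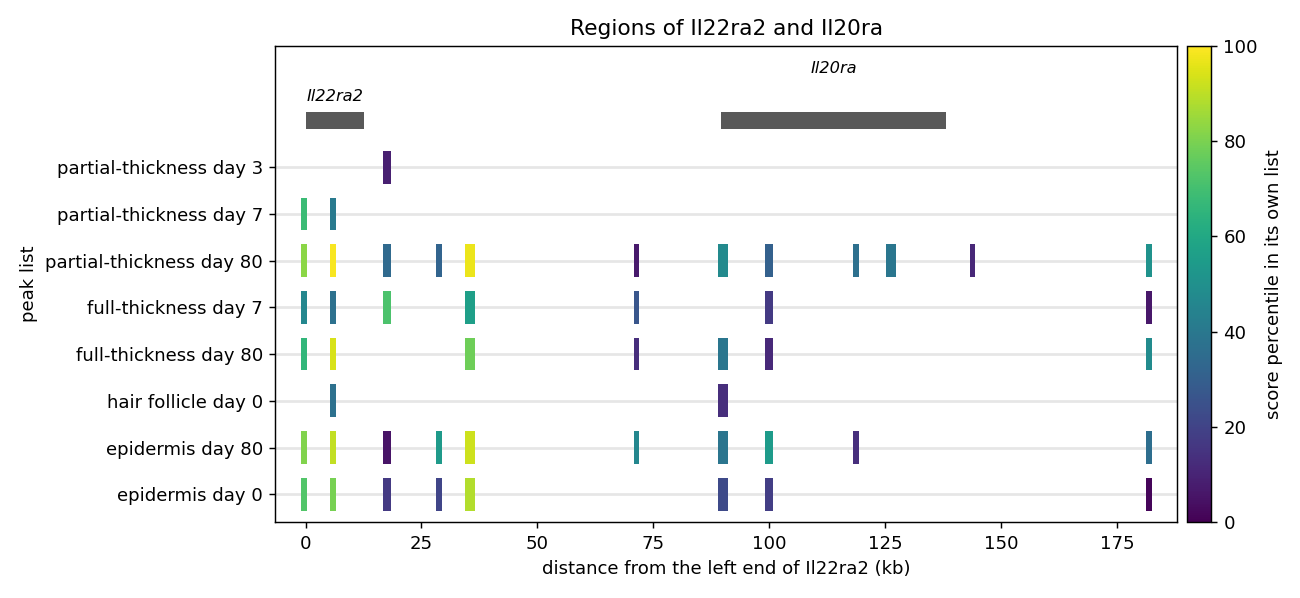
Member regions of Il22ra2 and Il20ra along chromosome 10 (x axis, distance in kb from the left end of Il22ra2; grey bars are the genes) in each peak list (rows), coloured by score percentile within the list. The rows of the partial-thickness wound at days 3 and 7 hold 1 and 2 regions, the row of day 80 holds all 12. The weakest peak kept in these rows had a −log10 p of 39.7, 40.2 and 21.0.

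Il20rb, the partner chain, and Il22ra1, which pairs with Il20rb for interleukins 20 and 24 and with Il10rb for interleukin 22, had regions in every list. Il20rb had 10 regions, with 8, 8 and 6 in the partial-thickness lists (days 3, 7 and 80), 7 and 7 for the full-thickness wound, 5 in the hair follicle, and 7 and 8 in the day 80 and day 0 epidermis. Its strongest, inside the gene (chromosome 9, 100466227 to 100468133), lay between percentiles 80.7 and 93.7 in every list. The Il22ra1 promoter region (chromosome 4, 135727614 to 135729109) was in all 8 lists as well, at percentiles 86.5, 90.0 and 66.9, then 90.5 and 52.3, then 70.4, 38.4 and 9.7. Il10rb had 4 regions, none of them in the hair follicle list and 3 in each of the other lists but the healed full-thickness one, which held 4. Its region at 91405484 to 91407153 on chromosome 16 is as near to Ifnar2 and is counted for that gene below as well. Of the 31 regions of these 6 receptor genes 13 were in both epidermal lists and not in the hair follicle, a pattern of 18.5% of all members and 13.7% of all regions.

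Receptor genes of the interleukin-17 family had regions in every list. Of their 12 regions 6 were in all 8 lists, beside 13.1% of all members and 22.0% of all regions, at Il17ra, the shared chain, Il17rb, where the region is as near to Chdh, Il17rc with 2, Il17rd, which encodes an inhibitor of FGF signalling, and Il17re, which pairs with Il17ra to bind interleukin 17C. The Il17re promoter region (chromosome 6, 113458176 to 113459603) had percentiles of 91.5, 92.9 and 96.9, then 91.4 and 95.9, then 85.8, 97.9 and 92.0. The region inside Il17rc, whose product pairs with Il17ra to bind interleukins 17A and 17F (113480359 to 113481467), had 85.3, 95.5 and 97.7, then 95.8 and 96.8, then 53.5, 98.5 and 94.1. Among the ligands Il17a had 1 region, in the day 7 full-thickness list alone, and Il17c had none. Il17b, whose product binds Il17rb, had 8, with 6, 6 and 3 in the partial-thickness lists (days 3, 7 and 80), 5 and 2 for the full-thickness wound, 5 in the hair follicle, 4 in the day 80 epidermis and 0 in the day 0 epidermis. The region inside it (chromosome 18, 61690690 to 61691674) was in every list but that last one, between percentiles 12.9 and 58.4 in the wound lists and the day 80 epidermis, and at 85.3 in the hair follicle.

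CXC chemokines that draw neutrophils through Cxcr2 form a cluster on chromosome 5, and several of their regions were in wound lists. Cxcl3 had 1 region, its promoter (90785622 to 90786561), in the early lists alone, and it was weak there, at percentiles of 1.9 at day 3, 16.5 at day 7 and 42.0 in the full-thickness list. Cxcl2 had 2 regions. That at 90908734 to 90909420, 2796 bp from the gene, was in all 5 wound lists and no unwounded list, at percentiles 12.9, 0.4 and 13.9 in the partial-thickness lists (days 3, 7 and 80), and 15.1 and 8.3 for the full-thickness wound, so it was a weak peak in each of them. Cxcl1 had 5, 2 and 3 regions in the partial-thickness lists, 5 and 4 for the full-thickness wound, and 3 each in the hair follicle, day 80 and day 0 epidermal lists. Its region 37692 bp away (90852563 to 90853553) was in the 3 early lists and the healed full-thickness list, at percentiles 49.3, 31.7, 31.1 and 33.1. Near Cxcl5 and Cxcl15, by contrast, the regions at 90722144 to 90723134 and at 90807077 to 90808216 were in both epidermal lists and the healed partial-thickness list, and in no early wound list.

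**Figure D5:**
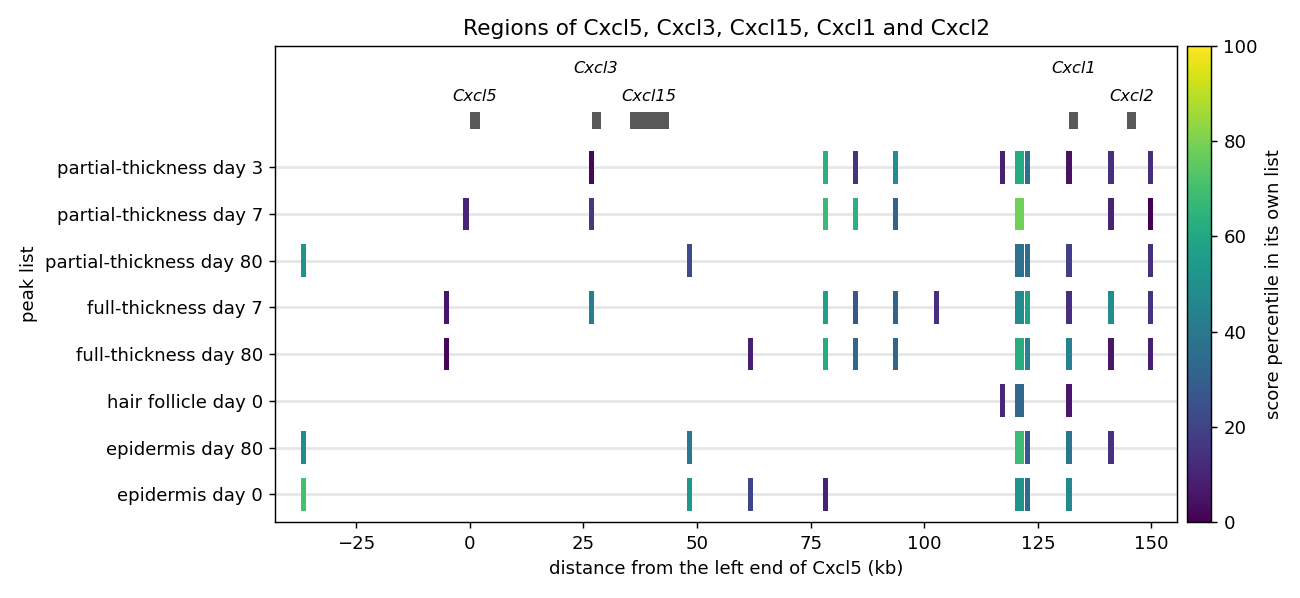
Member regions of Cxcl5, Cxcl3, Cxcl15, Cxcl1 and Cxcl2 along chromosome 5 (x axis, distance in kb from the left end of Cxcl5; grey bars are the genes) in each peak list (rows), coloured by score percentile within the list. The Cxcl3 promoter region appears in the 3 early wound rows, and 1 region to the left of Cxcl1 in every row.

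Cxcr2, the receptor of this cluster's products, had 3 regions, absent from the hair follicle and present in both epidermal lists and both healed lists. The early wound lists each held 2, and the third, 9500 bp from the gene (chromosome 1, 74170746 to 74171691), was missing from all of them. The region 525 bp from Cxcr2 had percentiles of 80.8, 76.9 and 52.7 in the partial-thickness lists, 85.5 and 60.0 for the full-thickness wound and 68.0 and 47.6 in the day 80 and day 0 epidermis. Cxcr1 had 1 region, in the day 3 and full-thickness day 7 lists.

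Cxcl10, an interferon-induced chemokine gene, had its promoter in all 8 lists, in a region as near to Art3. Within each list that region stood at a percentile between 8.2 (hair follicle) and 65.3 (day 7, partial-thickness wound). The neighbouring gene Cxcl9 had 2 regions, both in the day 7 partial-thickness and hair follicle lists, neither in the day 3 or full-thickness day 7 lists and 1 in each of the others. Cxcl17, a chemokine gene of mucosal and barrier epithelia, had 2, 2 and 1 regions in the partial-thickness lists (days 3, 7 and 80), 3 and 2 for the full-thickness wound, 0 in the hair follicle, 2 in the day 80 epidermis and 0 in the day 0 epidermis.

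Several chemokine genes of resting skin had regions in the hair follicle list. Cxcl14, which keratinocytes express in resting skin, had the most regions of any member, 13. The partial-thickness lists held 6, 7 and 8 of them, the full-thickness lists 7 and 5, the hair follicle 9, and the day 80 and day 0 epidermis 10 and 5. A region 18156 bp from it (chromosome 13, 56314967 to 56315937) stood at percentile 27.3 in the healed full-thickness list, 91.6 in the hair follicle list and 5.9 and 3.5 in the day 80 and day 0 epidermis, and was in no early wound list and not in the healed partial-thickness list. Cxcl12, a chemokine gene of dermal and stem cell niches, had 4, 4 and 3 regions, then 2 and 1, then 5, 4 and 3, and Cxcr4, its signalling receptor, 1, 1 and 2, then 0 and 1, then 5, 3 and 2. Of the 6 Cxcr4 regions the hair follicle list alone held 3 (chromosome 1, 128561030 to 128562111, 128612824 to 128613642 and 128623146 to 128623530), at percentiles 15.1, 23.4 and 8.2. The Cxcr4 promoter region was in 7 lists and missing from the day 7 full-thickness list. Ackr3, an atypical receptor that removes Cxcl12, had similar numbers in every list, 4, 5 and 5, then 6 and 5, then 5, 6 and 4.

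Cxcl13, which draws B cells, had 3 regions to its left that were in the hair follicle list alone (chromosome 5, 95938195 to 95939078, 95941227 to 95941543 and 95946176 to 95946648, at percentiles 79.2, 42.7 and 22.4) and 3 to its right that were in wound lists alone. Neither epidermal list held any of the 6. The region at 95985299 to 95987218 had percentiles of 55.0 at day 3 and 46.6 at day 7 after the partial-thickness wound and of 42.1 and 28.3 at days 7 and 80 after the full-thickness wound. Il12b, a chain of interleukins 12 and 23, had a region 34981 bp away (chromosome 11, 44363941 to 44365082) at percentiles 7.0, 61.9 and 13.9 in the partial-thickness lists (days 3, 7 and 80) and 98.2 in the hair follicle list, where it was among the strongest peaks. No full-thickness or epidermal list held it.

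In all, the hair follicle held 40 member regions that neither epidermal list did (12.7%, against 14.3% of all regions), and 21 of them, at 15 genes, were in no other list (6.69%, against 8.91%). The partial-thickness lists held 13 of the 40 on day 3, 13 on day 7 and 7 on day 80 (32.5%, 32.5% and 17.5%, with an interval of 7.34 to 32.8 for the last), against 28.7%, 26.6% and 9.85% of all such regions. The full-thickness lists held 5 on day 7 and 4 on day 80 (12.5% and 10.0%), against 16.2% and 8.72% of all such regions. An early partial-thickness list held 16 (5.1% of the members, against 4.84% of all regions). The 7 at day 80 (2.23%, against 1.41%) were at Il12b, Il5, Ccl11, Il9, Ccl27a, Il18bp and Cxcr5. Ccl27a, a chemokine gene of keratinocytes that draws Ccr10-bearing T cells to skin, had its promoter region (chromosome 4, 41773735 to 41774768) in the healed partial-thickness list at percentile 26.6 and in the hair follicle list at 24.0, and in no other. This locus has near-identical copies in the mouse genome, so the placement of its reads is uncertain.

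The CC chemokine cluster of chromosome 11, with Ccl2, Ccl7, Ccl11, Ccl12, Ccl8 and Ccl1, held regions of both unwounded and wounded skin. Ccl2, which draws monocytes, had 2, 2 and 1 regions in the partial-thickness lists, 1 and 2 for the full-thickness wound, 2 in the hair follicle, 1 in the day 80 epidermis and 0 in the day 0 epidermis. A region 19944 bp from Ccl2 (82014940 to 82015633) was in all 5 wound lists and no unwounded list, at percentiles 45.1, 43.6 and 15.6, then 18.3 and 80.3. The region 6574 bp from Ccl1 (82169331 to 82170092) followed the same pattern, at 41.7, 56.3 and 6.9, then 25.6 and 66.7. Ccl1, the ligand of Ccr8, also had 2 regions in both epidermal lists and both healed lists that no early list held, one of them 34463 bp away (82214275 to 82215319, at percentiles 74.6 and 69.8 in the healed partial- and full-thickness lists and 68.5 and 81.3 in the day 80 and day 0 epidermis). Ccl20, which draws Ccr6-bearing cells, had 8 regions and a mixed picture. Its numbers were 6, 7 and 6, then 7 and 4, then 4, 5 and 5. The Ccl20 region 583 bp away (chromosome 1, 83119750 to 83120586) was in wound lists alone, all 5, at 75.8, 58.2 and 4.1, then 86.4 and 32.2.

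Of the 6 regions in all 5 wound lists and no unwounded list, those described here were at Il20, Ccl20, Ccl2, Ccl1 and Cxcl2. In the 3 early lists and no unwounded list were 25 regions at 22 genes (7.96%, interval 5.22 to 11.5, against 5.94% of all regions), and 10 of them were in neither healed list, at Ccl20, Il19, Ccr7, Il17b, Il15ra, Cxcl3, Cxcl13, Il12rb2, Il23r and Il15. Both numbers are near those of all regions (3.18% against 3.45% for the 10).

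The 12 CC chemokine receptor genes had 17 regions, at 8 of the genes. The lists held 11, 7 and 7 of them, then 10 and 8, then 6, 5 and 3. Of all regions they held 56.6%, 55.0% and 51.9%, then 58.0% and 51.1%, then 45.9%, 49.8% and 47.8%. Ccr4, a receptor of skin-homing T cells, had a region inside the gene (chromosome 9, 114502515 to 114503425) at percentiles 17.1, 24.9 and 91.6 in the partial-thickness lists (days 3, 7 and 80), 71.1 and 98.8 for the full-thickness wound (days 7 and 80), and 96.2 and 96.3 in the day 80 and day 0 epidermis, while the hair follicle list lacked it. Ccr7, which guides dendritic cells to lymph nodes, had 7 regions, with 4, 3 and 2 in the partial-thickness lists, 2 and 1 for the full-thickness wound, 4 in the hair follicle, 1 in the day 80 epidermis and 0 in the day 0 epidermis.

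Interleukins that keep resident lymphocytes and Langerhans cells had regions in the epidermal lists and, in differing numbers, in the hair follicle list. Il15, which sustains natural killer cells and memory T cells, had 11 regions. The partial-thickness lists held 5, 5 and 6, the full-thickness lists 7 and 7, the hair follicle 1 and the day 80 and day 0 epidermis 6 and 7. The region 5208 bp from Il15 (chromosome 8, 82325189 to 82326416) was absent from the hair follicle alone, at percentiles 63.1, 68.5 and 79.4 in the partial-thickness lists, 83.4 and 80.9 for the full-thickness wound, and 83.6 and 83.5 in the epidermal lists. Il15ra, which presents interleukin 15 to other cells, had 1, 2 and 2, then 4 and 3, then 2, 3 and 3 of its 4 regions. Il34, a ligand of the Csf1 receptor, had 3, 6 and 6, then 5 and 5, then 4, 6 and 5 of its 9. A region inside Il34 (chromosome 8, 110779877 to 110780878) was in the hair follicle and the 3 early wound lists and in no healed or epidermal list, at percentiles 76.3 and 88.5 at days 3 and 7 after the partial-thickness wound, 63.7 at day 7 after the full-thickness wound and 80.1 in the hair follicle. Il7r, the receptor chain for interleukin 7 and for Tslp, had 2 regions, both in the epidermal and healed lists, 1 in each early wound list and none in the hair follicle. Il7 itself had 2, 1 and 2, then 1 and 1, then 1, 1 and 2 of its 2 regions.

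Of the 69 members of the day 0 epidermis absent from the hair follicle, the partial-thickness lists held 29 on day 3 (42.0%, interval 30.2 to 54.5), 37 on day 7 (53.6%) and 57 on day 80 (82.6%, 71.6 to 90.7), and those of the full-thickness wound 38 on day 7 (55.1%) and 50 on day 80 (72.5%). The day 80 epidermal list held 58 (84.1%). Over all such regions the shares were 44.6%, 52.3% and 71.8%, then 52.6% and 70.7%, and 71.6%. Members in both epidermal lists and in no early wound list numbered 25 (7.96%, against 5.71% of all regions), at 22 genes, and both healed lists held 10 of them (3.18%, against 2.89%), at Cxcr2, Ackr1, Il20ra, Ccl1, Il7r, Il15, Il34, Ccrl2 and Il13ra1.

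Cytokine receptors of type 2 immunity were uneven. Il4ra, shared by interleukins 4 and 13, had 8 regions, with 2, 3 and 2, then 4 and 3, then 3, 5 and 3. A region 12386 bp from Il4ra (chromosome 7, 125539153 to 125539885) was in the 3 early lists and the healed full-thickness list and in no unwounded list, at percentiles 83.9, 64.5, 71.9 and 64.0. Il13ra2, the decoy receptor of interleukin 13, had 0, 0 and 1, then 1 and 1, then 0, 2 and 3 of its 3 regions. This gene and Il13ra1 are on the X chromosome, and peaks on the Y chromosome numbered 0 to 3 per list. Il31ra, the receptor chain for the itch cytokine interleukin 31, had a region 713 bp away (chromosome 13, 112520182 to 112521218) that was absent at day 3 and from the hair follicle, with percentiles of 34.9 and 87.8 at days 7 and 80 after the partial-thickness wound, 33.8 and 79.9 after the full-thickness wound, and 90.2 and 92.8 in the day 80 and day 0 epidermis. Among members outside type 2 immunity, Il1rl2, the receptor of interleukin 36, had 5, 4 and 5, then 4 and 4, then 3, 4 and 4 of 6 regions. Il23r, which pairs with Il12rb1 to bind interleukin 23, had 4, 6 and 4, then 4 and 4, then 3, 6 and 3 of 9, and its region at 67458882 to 67460661 on chromosome 6 was between percentiles 89.8 and 99.7 in 7 lists and at 48.8 in the hair follicle. Il6 had its promoter region in 7 lists, at percentiles 48.9, 60.3 and 34.2, then 76.6 and 33.9, then 24.0 in the hair follicle and 3.6 in the day 80 epidermis.

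The 2 kinds of wound shared most of their early member regions. Of the 67 of the early partial-thickness wound in neither day 0 list and the 73 of the day 7 full-thickness wound, 47 were common, 70.1% of the first and 64.4% of the second, against 60.9% and 63.8% over all regions. The comparisons share both day 0 lists. The healed full-thickness list still held 32 of its 73 (43.8%, interval 32.2 to 55.9), against 23.0% over all such regions, and 27 of the 67 of the partial-thickness wound (40.3%, 28.5 to 53.0), against 21.6%. The healed partial-thickness list held 16 of the 67 (23.9%, 14.3 to 35.9), against 18.5%, and 17 of the 73 (23.3%), against 20.2%. The day 80 epidermal list held 15 of the 67 (22.4%, 13.1 to 34.2), against 10.4%, and 14 of the 73 (19.2%), against 10.8%. Of the 27 and 32 regions of the healed wounds in neither epidermal list 12 were common, 44.4% and 37.5%, against 31.1% and 31.5%. With peaks that had to cover 50% of a region, the healed partial-thickness share of members was 17.5% and the full-thickness share 5.73%, in the reverse order of 8.6% and 10.2%. All regions moved the same way, to 14.2% and 3.77%, and the median peak width was 961 bp and 460 bp in these lists.

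Genes that work with the members were counted from lists of their own. Of 29 cytokine and chemokine genes that the symbol rule misses, 20 had regions, 88 in all. The partial-thickness lists held 53, 48 and 57, the full-thickness lists 53 and 52, the hair follicle 34, and the day 80 and day 0 epidermis 52 and 44. Of these, 19 (21.6%) were in an early partial-thickness list and neither day 0 list and 16 (18.2%) in the day 7 full-thickness list and neither, near the 19.8% and 18.9% of all regions. Osmr, the oncostatin M receptor, had 8, 6 and 6, then 6 and 6, then 7, 6 and 6 of its 11 regions, and Ifnar2, a chain of the type I interferon receptor, 5, 5 and 4, then 5 and 5, then 0, 4 and 4 of 5. All 32 signal transducers had regions, 151 in all, with 92, 92 and 96, then 98 and 90, then 71, 85 and 85. In the same classes were 30 (19.9%) and 25 (16.6%), against 19.8% and 18.9% of all regions. Jak1 had 8, 10 and 11, then 9 and 11, then 5, 10 and 11 of 17, and Socs3, a feedback inhibitor of STAT signalling, 5, 5 and 9, then 6 and 7, then 7, 6 and 5 of 9. The members had 22.0% in the day 0 epidermis and not in the hair follicle, and 17.2% the other way round. In the excluded interleukin-1 family, with 74 regions, the share in the day 0 epidermis and not in the hair follicle was 41.9% (31 regions), and the share the other way round 4.05%, differences from the members that were not tested.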

How the data were processed

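ATAC-seq of 24 samples in 8 groups was available as 1 peak list per group. Per the submitters' processing notes, MACS2 2.1.1.20160309, bedtools 2.29.2, Picard and Bowtie were used with the mm10 build. The labels do not state whether samples were pooled before calling. The deposited lists give for each peak the authors' score, a fold enrichment over local background, and −log10 p and −log10 q values. The score was 10 times the −log10 q in all peaks, within 1 unit.

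The 267990 peaks were merged into 63188 regions where they shared at least 1 base, and a list holds a region if a peak of it overlaps. Each region took its nearest protein-coding gene, up to 50 kb away, from the RefSeq table of GRCm38.p6, which took 83.5% of them, and ties were given to every tied gene. Shares have exact Clopper-Pearson 95% intervals. With 1 list per group there is no error between replicates and no test, and the depth is unknown. Python 3.11.15, pandas 2.3.3, numpy 2.4.6, scipy 1.17.1 and matplotlib 3.10.9 were used, and the counting was tested on simulated data. Named genes were, per class, up to 8 genes with most regions, every member with at least 8 regions, and a list of known skin cytokines and receptors. Single regions of genes so named were taken where they were in every wound list and no unwounded list, in every list, in the hair follicle list alone, or in the epidermal lists and not the hair follicle list. The members, gene lists and classes were chosen with earlier results of these data known. The alternatives were peaks of the upper 50% by score, peaks covering 50% of a region, lists cut to the 29365 strongest peaks, genes within 10 kb, leaving out Il1rapl1 and Il1rapl2, and, chosen after seeing the data, the day 80 in place of the day 0 epidermal list. No sequence of regions away from promoters was used here. Members without a value in the text are in the counts, and some results on members are not reported here.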

Additional observations from a re-analysis of the deposited data

How the results depend on the processing

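All 10 class shares stayed within their intervals with genes within 10 kb and without Il1rapl1 and Il1rapl2. Il1rapl1 had 0 regions and Il1rapl2 had 1, so leaving them out could barely move a share. With peaks of the upper 50% by score, the share of the day 80 epidermis missing at day 0 was 9.88%, that of the day 0 epidermis missing at day 80 was 12.2% and that of the healed partial-thickness wound in neither epidermal list 5.23%, against 10.1%, 8.4% and 8.02% of all regions. With peaks that had to cover 50% of a region, the shares, with those of all regions in brackets, were 17.2% (16.5%) for the day 0 epidermis missing from the hair follicle, 12.1% (13.1%) for the day 0 epidermis missing at day 80, 27.4% (24.9%) and 29.3% (23.6%) for the early partial- and full-thickness wounds in neither day 0 list, and 17.5% (14.2%) and 5.73% (3.77%) for the healed partial- and full-thickness wounds. With lists of equal length the early wound shares were 16.0% (15.1%) and 18.1% (13.7%). For the day 7 full-thickness wound in neither day 0 list, peaks of the upper 50% by score gave 19.2% (19.4%), no longer above all regions. With the day 80 in place of the day 0 epidermal list, a choice made after seeing the data, the epidermal share missing from the hair follicle was 27.7%, against 20.1% of all regions, and the early partial-thickness share 18.5%, against 20.5%. The day 7 full-thickness share was then 19.7%, against 19.1% of all regions. The cause was not tested. No paired analysis was possible because each group came as 1 peak list and no result comes from a test. No list could be left out of a group for the same reason. The depth behind the lists is unknown, and their weakest peaks differ in −log10 p, so absence of a region is absence from that list only.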
